A study of Mus musculus with 32 samples.

Results

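The 10 genes described here encode the enzymes that make and remove superoxide and hydrogen peroxide: the superoxide dismutases Sod1, Sod2 and Sod3, catalase (Cat), the glutathione peroxidases Gpx1 and Gpx3, the peroxiredoxins Prdx1 and Prdx5, and the NADPH oxidase subunits Nox4 and Cybb. They were chosen by name, and each matched 1 of the 41388 genes counted. Measurements came from RNA sequencing of 32 libraries of primary sternal chondrocytes of C57BL/6 mice, in 16 groups of 2 libraries. After IL-1β, an inflammatory cytokine that acts on cartilage in osteoarthritis, Sod2 and Sod3 rose 6.40-fold and 7.51-fold in control cells, Prdx1 and Prdx5 rose 2.30-fold and 1.75-fold, and Sod1 was not called. With IL-1β present, Sod2, Sod3, Gpx3 and Prdx1 fell after adenoviral Cre in cells with floxed alleles of Ldha (a glycolytic enzyme), Nampt (an enzyme of NAD synthesis) or Nfkbiz (the NF-κB cofactor IκB-ζ).

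NADPH oxidases pass electrons from NADPH to oxygen and give superoxide or hydrogen peroxide. Dismutases turn superoxide into hydrogen peroxide, which catalase, the glutathione peroxidases and the peroxiredoxins reduce to water. Sod1 works mainly in the cytosol, Sod2 in the mitochondrial matrix and Sod3 outside the cell, where it binds matrix heparan sulfate in tissues such as cartilage. Nox4 is active with the subunit Cyba alone, whereas Cybb (gp91phox, NOX2) is the oxidase of phagocytes and needs cytosolic partners.

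Wild-type cells carried no virus and were untreated or received FX11 (40 µM, an LDHA inhibitor), IL-1β (10 ng/mL) or both for 24 h. Cells of the LDHA flox, NAMPT flox and NFKBIZ flox lines, whose named gene is flanked by loxP sites, were infected for 24 h with adeno-GFP as control or with adeno-cre to delete it, and then cultured for 24 h with or without IL-1β. Per the study's methods, chondrocytes were taken from newborn pups in their first days of life, and sex was not taken into account. All floxed cells, controls included, thus carried the floxed alleles and an adenovirus, and no library combined adeno-cre with alleles free of loxP, so that effects of Cre and of the deletion cannot be told apart. The labels do not say whether the 2 libraries of a group came from separate cultures or mice, so p-values measure the spread between these libraries, which may be technical.

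Libraries held 15830658 to 39959888 counted reads (median 25363482) and their titles number them in 2 series, here called set 1 (12 libraries) and set 2 (20 libraries). In the wild-type, LDHA flox and NAMPT flox cells replicate 1 was of set 1 and replicate 2 of set 2, and every NFKBIZ flox library was of set 2. The deleted genes fell with adeno-cre in every line. Ldha was 918 and 869 CPM (counts scaled to library size, with TMM factors over the 32 libraries) in LDHA flox cells with adeno-GFP and 118 and 111 CPM with adeno-cre. Nampt was 59.5 and 54.6 CPM in NAMPT flox controls and 6.72 and 6.86 CPM with adeno-cre. Nfkbiz, which IL-1β raises, was 235 and 229 CPM in NFKBIZ flox controls with IL-1β and 29.5 and 32.3 CPM with adeno-cre and IL-1β. Without IL-1β, adeno-cre lowered Nfkbiz 1.86-fold in NFKBIZ flox cells (log2 fold change -0.89 ± 0.12, edgeR, adjusted p = 0.00385). That call was lost without adeno-GFP replicate 2 or adeno-cre replicate 2 (0.0504 to 0.068). Without IL-1β, Nfkbiz was also lower with adeno-cre in NAMPT flox cells (-0.51 ± 0.09, edgeR, adjusted p = 0.00349), where it is not floxed. In LDHA flox cells it was at 0.08 ± 0.10 (0.786). A fall of Nfkbiz alone thus does not show its deletion. The floxed groups matched their labels by these genes, though less clearly in NFKBIZ flox cells, above all without IL-1β. In set 2 of the wild type they did not: Mmp3, a matrix protease raised by IL-1β, stood at 0.784 CPM under the IL-1β label and at 2016 CPM under the FX11 label. Set 1 held 9125 CPM and 1.20 CPM in those conditions. Both set 2 libraries were kept under their labels, and wild-type results are given by set.

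All 8 chondrocyte markers examined exceeded 1 CPM, and their summed level was 70070 to 91550 CPM in the 6 floxed adeno-GFP libraries and 25970 to 32170 CPM with IL-1β. With adeno-cre and IL-1β it was 13780 to 38860 CPM. All 8 fell with IL-1β, where 26.7% of all genes were lower in the floxed controls. With IL-1β present, adeno-cre lowered 7 of 8 in LDHA flox cells (17% of all genes lower) and 6 of 8 in NAMPT flox cells (23.4%). In NFKBIZ flox cells 1 of 8 fell and 1 rose (9.2% of all genes lower, 8.16% higher). The 5 fibroblast markers summed to 483 to 4055 CPM in floxed libraries. With IL-1β, adeno-cre lowered 4 of 5 in both the LDHA flox and the NAMPT flox cells. In NFKBIZ flox cells Col3a1 alone was called, lower by 0.49 ± 0.12 on the log2 scale (edgeR, adjusted p = 0.0165), and Dpt was too low to be tested. The 4 endothelial markers summed to 2.65 to 5.81 CPM in adeno-GFP libraries with IL-1β and 4.04 to 24.8 CPM in adeno-cre libraries with IL-1β. They did not move together. With IL-1β, adeno-cre raised Kdr in LDHA flox (log2 fold change 3.27 ± 0.19, edgeR, adjusted p = 1.70e-06) and NAMPT flox cells (3.45 ± 0.15, 3.25e-08). In NAMPT flox cells Cdh5 was also higher (1.43 ± 0.44, 0.0207) and Pecam1 lower (-1.74 ± 0.36, 0.00214). No endothelial marker was called in NFKBIZ flox cells. In these bulk samples fewer cells of a type and less RNA per cell cannot be told apart, and the part of cell composition in the results below was not tested.

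On GRCm38 the members lie at 16:90220754-90226329 (Sod1), 17:13006846-13040063 (Sod2), 5:52363791-52371418 (Sod3), 2:103453849-103485160 (Cat), 9:108338903-108340343 (Gpx1), 11:54902453-54910377 (Gpx3), 4:116685544-116700822 (Prdx1), 19:6906697-6910106 (Prdx5), 7:87246096-87398710 (Nox4) and X:9435252-9487771 (Cybb). Each value is a count over the gene's exons. Prdx5 shares 409 exon bases with Trmt112 on the opposite strand. The strand setting of the counting is not given in the sources used here, so some Prdx5 reads could come from Trmt112. No other member shared exon bases with another annotated gene.

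**Figure D1:**
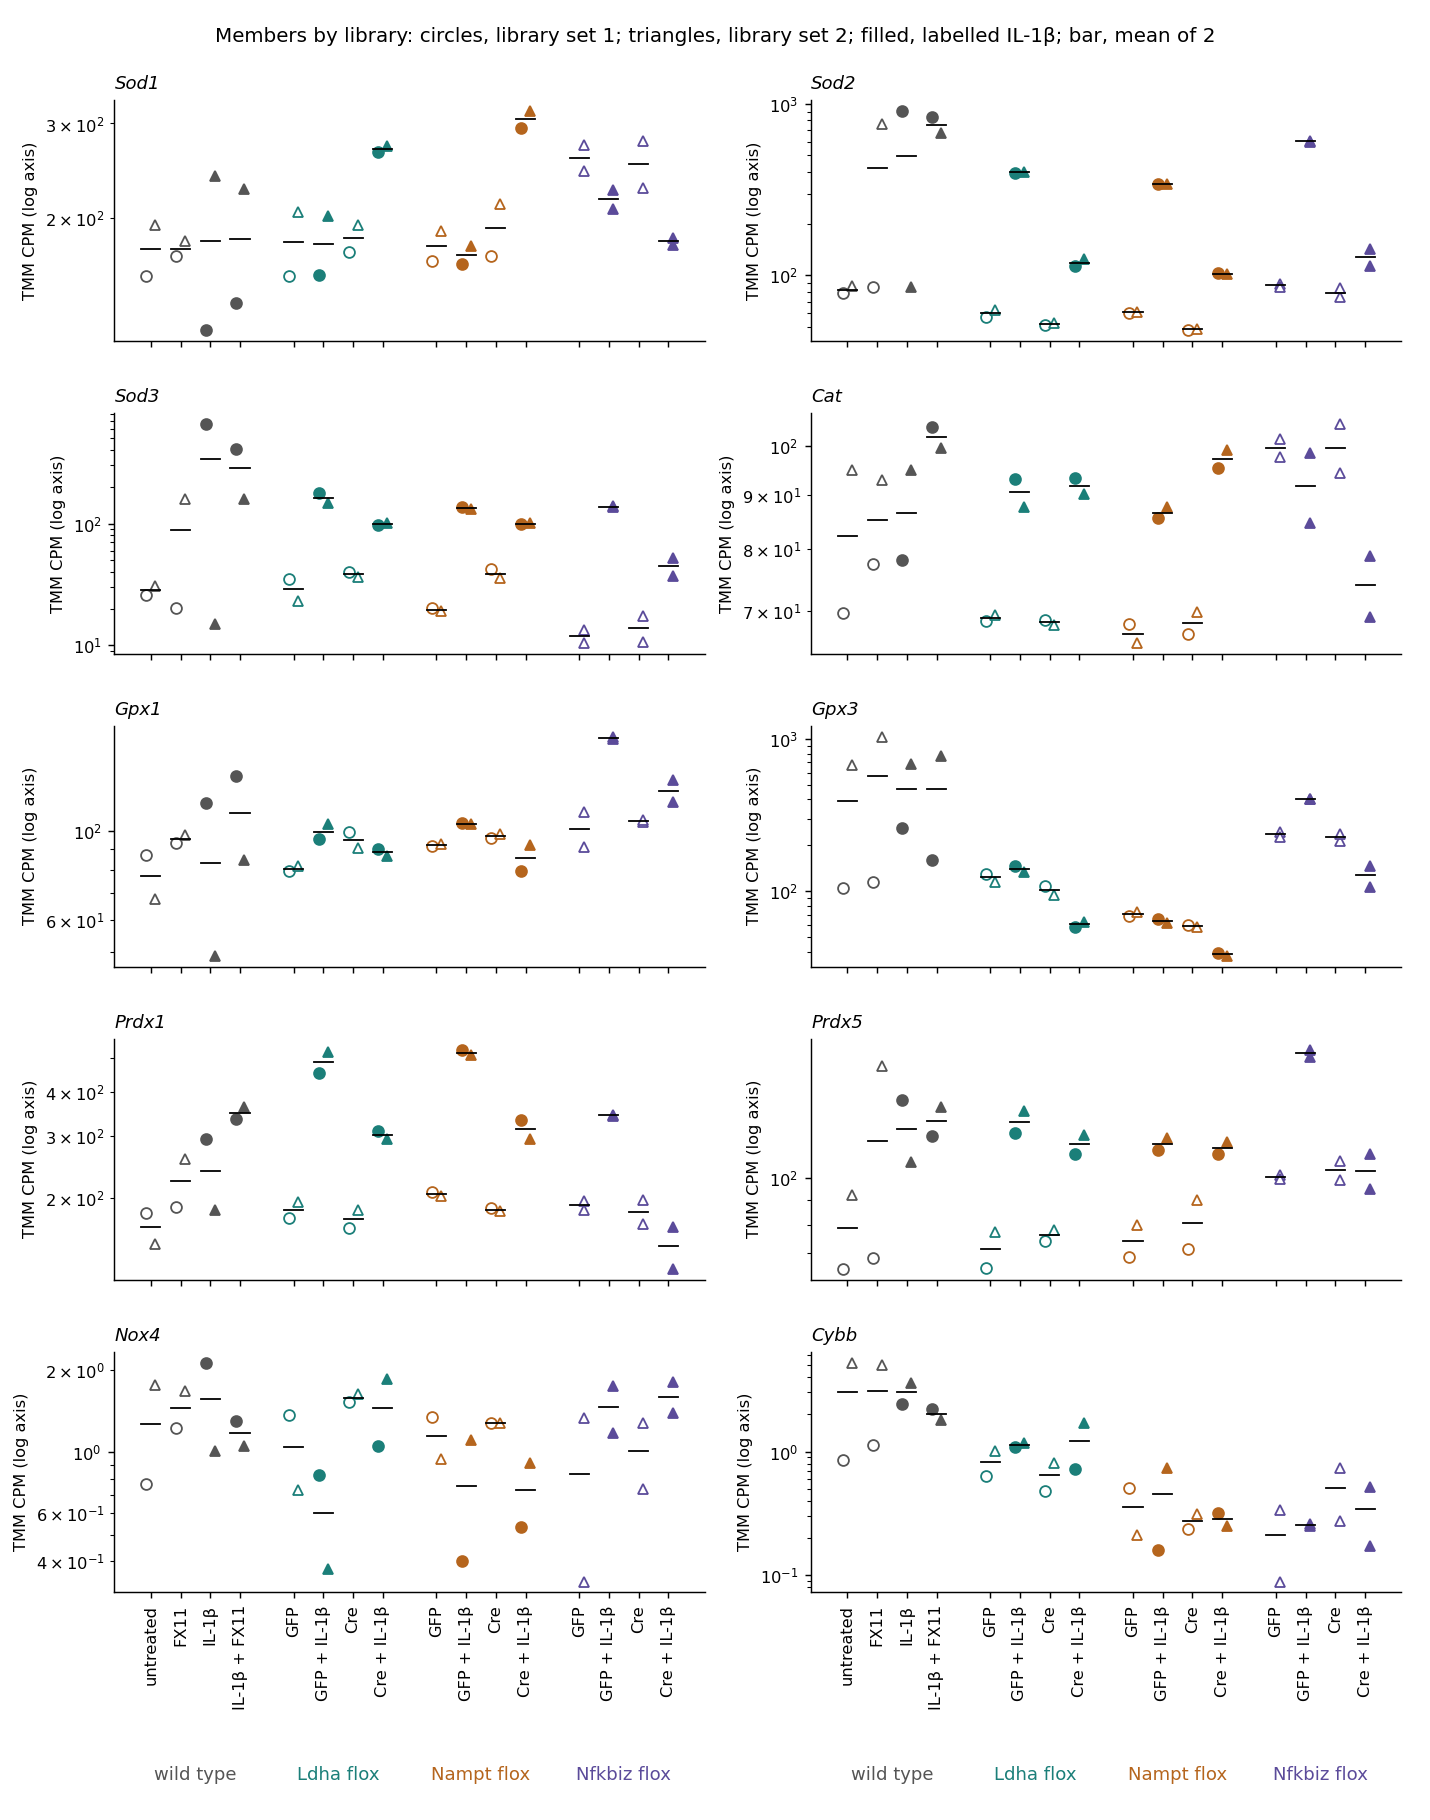
TMM-scaled CPM of the 10 members in each of the 32 libraries (log axis), grouped by condition and coloured by line; each point is 1 library. In the floxed lines Sod2 and Sod3 stand higher in the IL-1β groups, from 57.2 to 89.3 CPM up to 340.3 to 609 CPM for Sod2 with adeno-GFP. Cybb stays at or under 1.71 CPM in floxed libraries and reaches 5.22 CPM in the wild type.

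Levels of different genes were compared per kilobase of the gene length in the deposited tables. In the 6 floxed adeno-GFP libraries without IL-1β the median CPM per kilobase was 305 for Sod1 (range 242 to 423), 87.8 for Gpx1, 67.9 for Gpx3, 64.4 for Prdx1, 36.7 for Prdx5, 26.4 for Cat, 16.3 for Sod2, 5.48 for Sod3, 0.135 for Nox4 and 0.0727 for Cybb. The ranges of neighbours in this order overlapped for Gpx1 and Gpx3, Gpx3 and Prdx1, Prdx5 and Cat, and Nox4 and Cybb. With IL-1β the order was Sod1 (294), Prdx1 (158), Sod2 (104), Gpx1 (99.9), Gpx3 (77.5), Prdx5 (60.9), Sod3 (38.7), Cat (33.6), Nox4 (0.115) and Cybb (0.0862). By median, Sod2 thus passed Gpx1, Gpx3, Prdx5 and Cat. The ranges of neighbours were apart only for Sod1 and Prdx1, Prdx5 and Sod3, and Cat and Nox4. Transcripts of the oxidase subunits were far below those of the removing enzymes in both conditions.

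**Figure D2:**
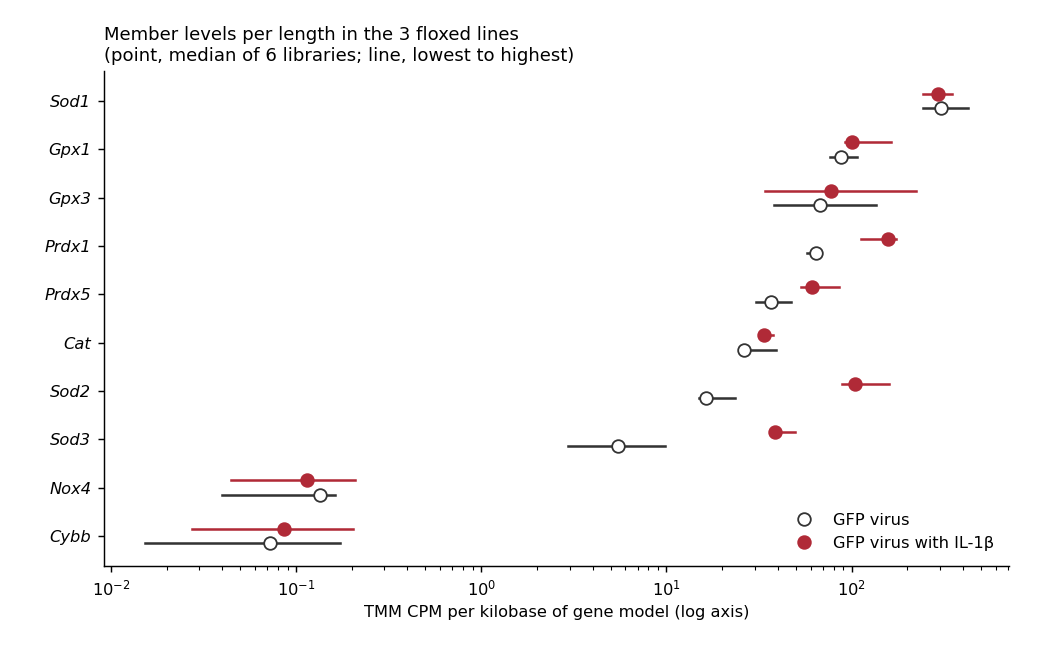
TMM-scaled CPM per kilobase of deposited gene length (log axis) in the 6 floxed adeno-GFP libraries without IL-1β and the 6 with IL-1β. Each point is the median of 6 libraries, and each line runs from the lowest to the highest library. Sod1 has the highest median in both conditions (305 and 294) and Nox4 and Cybb the lowest.

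To ask how IL-1β changed these genes, the 6 adeno-GFP libraries with IL-1β of the 3 floxed lines were compared with the 6 without, with the line as a term in edgeR. Of the 10 members, 9 passed the filter on low counts and 7 were called at an adjusted p of 0.05 or less, all 7 higher: Sod2, Sod3, Prdx1, Prdx5, Gpx1, Gpx3 and Cat. Of all 14283 genes tested, 53.1% were called, 26.4% higher and 26.7% lower. The median log2 fold change was 0.42 over the 9 members tested and -0.01 over all genes. Cybb did not pass the filter. In set 1 alone (2 against 2 libraries, LDHA flox and NAMPT flox) 7 members were called, among them Nox4 with -1.15 ± 0.47 (adjusted p = 0.0375) but not Gpx3 (0.06 ± 0.07, 0.456). In set 2 alone (4 against 4) 6 were called, without Cat (0.15 ± 0.09, 0.218). Within single lines IL-1β called 6 of 10 members in LDHA flox controls (27.9% of all genes; 14.5% higher, 13.3% lower), 5 of 9 in NAMPT flox controls (35%; 17.7% higher, 17.3% lower) and 6 of 9 in NFKBIZ flox controls (26.8%; 15.2% higher, 11.7% lower), all of them higher.

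**Figure D3:**
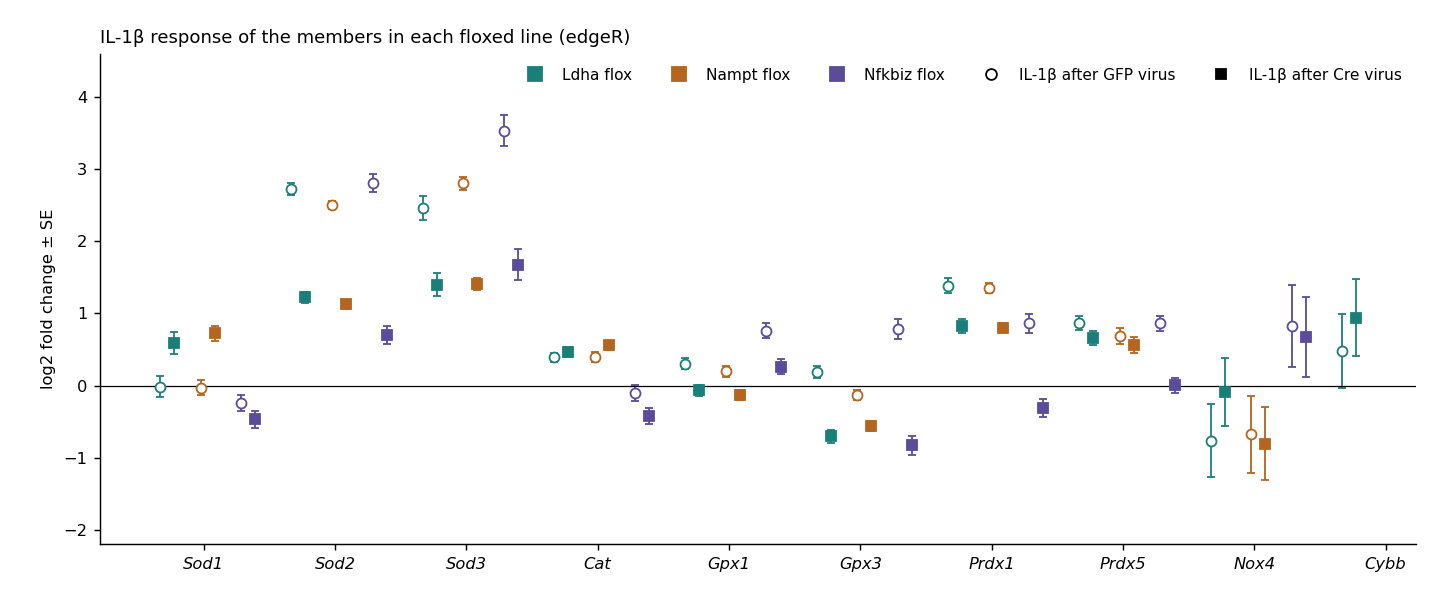
Log2 fold change with IL-1β (± SE, edgeR) of each member in the adeno-GFP and adeno-cre cells of the 3 floxed lines. Sod2 responds with 2.51 to 2.80 after adeno-GFP and 0.70 to 1.22 after adeno-cre; a member that did not pass the filter in a line has no point.

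To ask what the deletions changed, adeno-cre was compared with adeno-GFP within each line. With IL-1β, 5 of 10 members were called in LDHA flox cells, 1 higher and 4 lower (34% of all genes; 16.9% higher, 17% lower). In NAMPT flox cells 7 of 9 were called, 2 higher and 5 lower (48.4%; 25% higher, 23.4% lower). In NFKBIZ flox cells 6 of 9 were called, all lower (17.4%; 8.16% higher, 9.2% lower). The members' median log2 fold change was -0.14, -0.26 and -0.82 in the 3 lines, against -0.02, -0.03 and -0.01 over all genes. Sod2, Sod3, Gpx3 and Prdx1 fell in every line.

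Without IL-1β, adeno-cre called 0 of 10 members in LDHA flox cells by edgeR, DESeq2 and limma voom, with 4 at an unadjusted p under 0.05 (5.52% of all genes called; 3.43% higher, 2.09% lower). With the library set as a replicate block 4 were called there: Sod2 (log2 fold change -0.22, adjusted p = 0.0208), Sod3 (0.38, 0.0208), Gpx1 (0.22, 0.0400) and Gpx3 (-0.30, 0.00554). In NAMPT flox cells 3 of 9 were called, 1 higher and 2 lower (14.4%; 8.3% higher, 6.07% lower). In NFKBIZ flox cells 0 of 9 were called by the 3 tools, with 0 at an unadjusted p under 0.05 (0.26%; 0.111% higher, 0.15% lower).

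After adeno-cre, IL-1β still changed members: 7 of 10 in LDHA flox cells, 6 higher and 1 lower (35.9% of all genes; 19.5% higher, 16.3% lower), 7 of 9 in NAMPT flox cells, 6 higher and 1 lower (43.9%; 24.3% higher, 19.6% lower), and 5 of 9 in NFKBIZ flox cells, 2 higher and 3 lower (22.1%; 11.7% higher, 10.3% lower). The interaction, which is the response to IL-1β after adeno-cre minus that after adeno-GFP, was called for 4 of 10 members in LDHA flox cells, all lower (11.5%; 5.89% higher, 5.6% lower). DESeq2 and the replicate block called 6 there, with Sod1 higher and Gpx1 lower besides. It was called for 6 of 9 in NAMPT flox cells, 1 higher and 5 lower (22%; 12% higher, 9.98% lower), and for 5 of 9 in NFKBIZ flox cells, all lower (5.19%; 1.69% higher, 3.5% lower). The comparisons within a line share libraries, so their calls are not independent of each other.

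**Figure D4:**
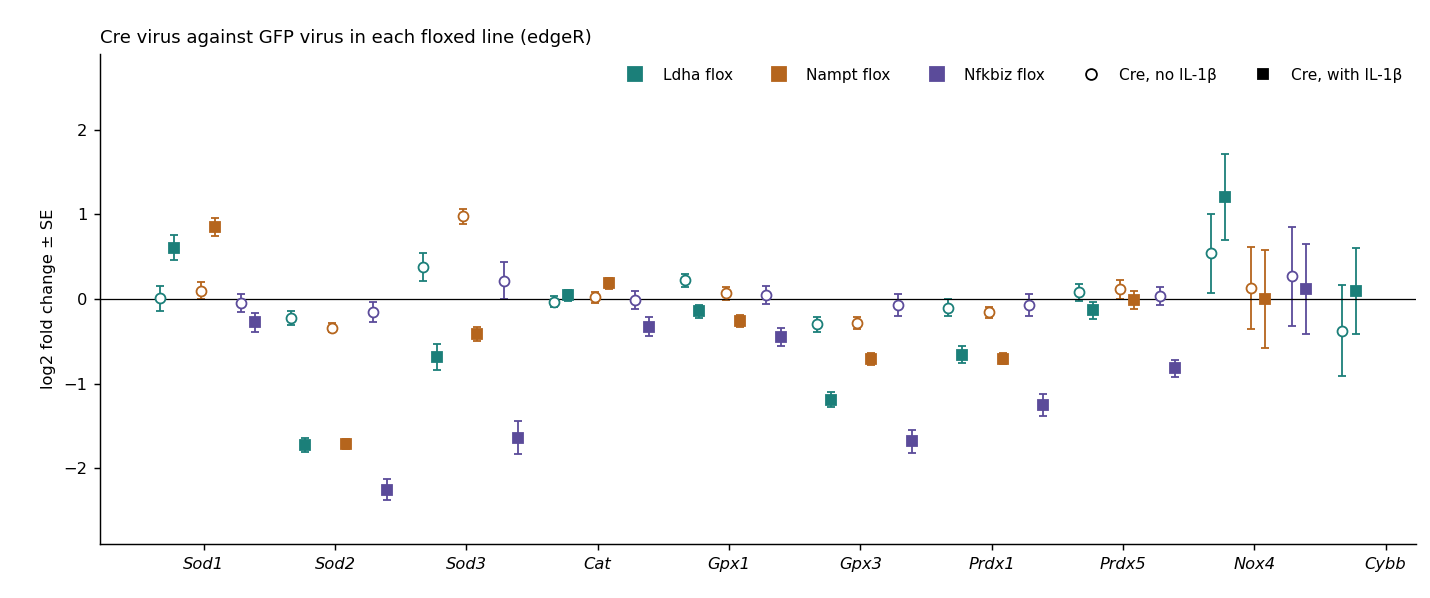
Log2 fold change of adeno-cre against adeno-GFP (± SE, edgeR) for each member in the 3 floxed lines, open circles without IL-1β and filled squares with it. With IL-1β Sod2 lies at -1.73, -1.72 and -2.25 in the LDHA, NAMPT and NFKBIZ flox cells, and Sod1 lies above 0 in the first 2 lines and at -0.28 in the third.

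Sod2, the manganese dismutase of mitochondria, was the member with the smallest adjusted p in the IL-1β comparison. Sod2 in LDHA flox cells was 57.2 and 63.1 CPM with adeno-GFP, 397 and 401 CPM with IL-1β, 51.7 and 52.6 CPM with adeno-cre, and 113 and 124 CPM with adeno-cre and IL-1β. Sod2 in NAMPT flox cells was 60.7 and 61.3, 342 and 340.3, 48.1 and 49.0, and 103 and 102 CPM in the same 4 conditions. Sod2 in NFKBIZ flox cells was 89.3 and 85.6, 599.8 and 609, 74.8 and 84.0, and 143 and 113 CPM. In each line the IL-1β libraries lay above the libraries without it, and with IL-1β the adeno-cre libraries lay below the controls, with no overlap. IL-1β raised Sod2 by 2.68 ± 0.06 on the log2 scale over the 6 against 6 controls (SE; edgeR, adjusted p = 8.93e-15). With IL-1β present, adeno-cre lowered it 3.31-fold in LDHA flox cells (log2 fold change -1.73 ± 0.08, adjusted p = 3.06e-07), 3.29-fold in NAMPT flox cells (-1.72 ± 0.06, 4.65e-09) and 4.77-fold in NFKBIZ flox cells (-2.25 ± 0.12, 8.57e-08). What was left of the response after adeno-cre was 1.22 ± 0.08 in LDHA flox, 1.13 ± 0.06 in NAMPT flox and 0.70 ± 0.12 in NFKBIZ flox cells. The interaction was -1.50 ± 0.11 (adjusted p = 4.36e-05), -1.38 ± 0.08 (2.66e-06) and -2.10 ± 0.17 (1.59e-05). Without IL-1β, Sod2 fell with adeno-cre in NAMPT flox cells by 0.34 ± 0.06 on the log2 scale (adjusted p = 0.00262), and in LDHA flox cells a change of -0.22 ± 0.06 was called with the replicate block (0.0208).

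The promoter of Sod2 is shown because this gene had the smallest adjusted p for IL-1β, a cytokine that acts through NF-κB, and because the deleted Nfkbiz encodes an NF-κB cofactor. It was taken from RefSeq (GRCm38.p6), from 250 bases before to 50 after the start, at 17:13007589-13007888 on the plus strand. Promoters were searched on both strands for the NF-κB consensus, for the AP-1 motif TGANTCA and for the antioxidant response element core TGACNNNGC. The capitals mark the match to the NF-κB consensus, which reads on both strands and begins 83 bases before the start.
Sod2 promoter: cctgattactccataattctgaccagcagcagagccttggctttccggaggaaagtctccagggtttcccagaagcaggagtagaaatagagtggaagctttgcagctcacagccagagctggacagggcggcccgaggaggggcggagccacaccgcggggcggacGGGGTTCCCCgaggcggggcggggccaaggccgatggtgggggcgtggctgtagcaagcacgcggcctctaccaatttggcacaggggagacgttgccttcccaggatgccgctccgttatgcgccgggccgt
Of the 32851 promoters of this length in the table, 4.51% held the NF-κB consensus, 7.81% the AP-1 motif and 12.4% the antioxidant response element core. A match is a description of the letters and not of binding. Promoters of 9 of the 10 members were in the table, without Sod3.

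Sod3, the secreted dismutase, had the largest fold change with IL-1β among the members and started from a low level. Sod3 in LDHA flox cells was 35.1 and 23.2 CPM with adeno-GFP, 177 and 147 CPM with IL-1β, 40.4 and 36.7 CPM with adeno-cre, and 97.8 and 100.2 CPM with adeno-cre and IL-1β. Sod3 in NAMPT flox cells was 20.1 and 19.0, 137 and 132, 42.0 and 35.6, and 98.6 and 101 CPM. Sod3 in NFKBIZ flox cells was 10.5 and 13.4, 136 and 139, 17.3 and 10.7, and 36.8 and 52.3 CPM. The IL-1β libraries lay above the others in each line and each virus group. The log2 fold change with IL-1β was 2.91 ± 0.15 over the 6 against 6 controls (edgeR, adjusted p = 2.86e-10). With IL-1β, adeno-cre changed it by -0.69 ± 0.15 in LDHA flox cells (adjusted p = 0.00687), -0.42 ± 0.08 in NAMPT flox cells (0.00131) and -1.64 ± 0.19 in NFKBIZ flox cells (8.80e-05). In LDHA flox cells that call was lost without adeno-cre IL-1β replicate 1 (adjusted p = 0.0506). Without IL-1β the direction was the opposite in NAMPT flox cells, where adeno-cre raised Sod3 1.97-fold (log2 fold change 0.98 ± 0.09, adjusted p = 3.30e-05). The interaction was -1.07 ± 0.22 in LDHA flox (adjusted p = 0.0136), -1.39 ± 0.12 in NAMPT flox (2.32e-05) and -1.86 ± 0.29 in NFKBIZ flox cells (0.00241). The first of these was lost without LDHA flox adeno-cre replicate 1 or adeno-cre IL-1β replicate 1 (adjusted p = 0.0536 to 0.0568).

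Sod1, the copper and zinc dismutase of the cytosol, was not called by edgeR with IL-1β in control cells of any line. By limma voom a fall of 0.24 ± 0.09 on the log2 scale was called in NFKBIZ flox controls (adjusted p = 0.0439). Sod1 in LDHA flox cells was 156 and 206 CPM with adeno-GFP, 157 and 202 CPM with IL-1β, 173 and 194 CPM with adeno-cre, and 266 and 273 CPM with adeno-cre and IL-1β. Sod1 in NAMPT flox cells was 166 and 189, 165 and 178, 170.2 and 213, and 295 and 316 CPM. Sod1 in NFKBIZ flox cells was 274 and 245, 208 and 226, 227 and 278, and 178 and 184 CPM. The adeno-cre libraries with IL-1β were the highest of their line in the first 2 lines and the lowest in the third. With IL-1β, adeno-cre raised Sod1 by 0.61 ± 0.15 on the log2 scale in LDHA flox cells (edgeR, adjusted p = 0.0103) and by 0.85 ± 0.10 in NAMPT flox cells (6.06e-05), and the change in NFKBIZ flox cells was -0.28 ± 0.11 (0.115). The LDHA flox call was lost without adeno-GFP IL-1β replicate 1 or either adeno-cre IL-1β replicate (adjusted p = 0.0544 to 0.103). After adeno-cre the response to IL-1β was 0.59 ± 0.15 in LDHA flox (adjusted p = 0.0114), 0.72 ± 0.10 in NAMPT flox (0.000221) and -0.47 ± 0.11 in NFKBIZ flox cells (0.0109). The first was lost without adeno-cre replicate 1 or either adeno-cre IL-1β replicate of that line (0.0581 to 0.0827), and the third without NFKBIZ flox adeno-cre replicate 2 (0.140). The interaction was 0.75 ± 0.15 in NAMPT flox cells (adjusted p = 0.00434). In LDHA flox cells it was 0.60 ± 0.21, with an adjusted p of 0.0993 and of 0.000472 with the library set as a replicate block, and it was also called by DESeq2 (0.0109) and without a filter (0.000347).

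Catalase, the peroxide-removing enzyme of peroxisomes, moved little. Cat in LDHA flox cells was 68.5 and 69.4 CPM with adeno-GFP, 93.2 and 87.8 CPM with IL-1β, 68.7 and 67.9 CPM with adeno-cre, and 93.4 and 90.2 CPM with adeno-cre and IL-1β. Cat in NAMPT flox cells was 68.0 and 65.4, 85.6 and 87.6, 66.7 and 69.9, and 95.4 and 99.2 CPM. Cat in NFKBIZ flox cells was 101 and 97.7, 84.7 and 98.6, 94.4 and 105, and 78.9 and 69.1 CPM. IL-1β libraries lay above the rest in the first 2 lines and overlapped with them or lay below in the third. Over the 6 against 6 controls the log2 fold change was 0.23 ± 0.08 (edgeR, adjusted p = 0.0195), and the call was lost without LDHA flox adeno-GFP IL-1β replicate 1 or NAMPT flox adeno-GFP IL-1β replicate 2 (adjusted p = 0.0552 to 0.0571). In single lines it was 0.39 ± 0.07 in LDHA flox (adjusted p = 0.00167), 0.40 ± 0.07 in NAMPT flox (0.000788) and -0.10 ± 0.11 in NFKBIZ flox controls (0.534). After adeno-cre it was 0.46 ± 0.07 (adjusted p = 0.000439), 0.56 ± 0.06 (4.09e-05) and -0.42 ± 0.11 (0.0164). The last call was lost without NFKBIZ flox adeno-cre replicate 2 or adeno-cre IL-1β replicate 2 (0.0768 to 0.142). Adeno-cre with IL-1β gave 0.18 ± 0.06 for Cat in NAMPT flox cells (adjusted p = 0.0360), a call that was lost by DESeq2 (0.0653) and without a filter (0.0528). Without a filter a change of -0.33 ± 0.12 was called in NFKBIZ flox cells (adjusted p = 0.0430). The NAMPT flox call was also lost by leaving out any of 5 libraries of the line, both adeno-GFP IL-1β and both adeno-cre IL-1β replicates and adeno-GFP replicate 2 (0.0755 to 0.275).

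Gpx1, the cytosolic and mitochondrial selenium-dependent glutathione peroxidase, rose modestly with IL-1β. Gpx1 in LDHA flox cells was 79.6 and 81.6 CPM with adeno-GFP, 95.4 and 104 CPM with IL-1β, 99.3 and 90.7 CPM with adeno-cre, and 90.3 and 86.7 CPM with adeno-cre and IL-1β. Gpx1 in NAMPT flox cells was 91.5 and 92.8, 104 and 104, 95.8 and 98.4, and 79.4 and 92.1 CPM. Gpx1 in NFKBIZ flox cells was 111 and 91.3, 171 and 169, 105 and 106, and 134 and 118 CPM. The rise with IL-1β was widest in NFKBIZ flox controls, and after adeno-cre the groups with and without IL-1β did not separate in the same direction in all lines. The log2 fold change over the 6 against 6 controls was 0.42 ± 0.08 (edgeR, adjusted p = 0.000409). In single lines it was 0.30 ± 0.08 in LDHA flox (adjusted p = 0.0163), 0.20 ± 0.07 in NAMPT flox (0.0620, and 0.00330 with the replicate block) and 0.76 ± 0.11 in NFKBIZ flox controls (0.000200). The LDHA flox call was lost without adeno-GFP replicate 1 or adeno-GFP IL-1β replicate 2 (0.0698 to 0.126). With IL-1β, adeno-cre lowered Gpx1 by 0.26 ± 0.07 on the log2 scale in NAMPT flox cells (adjusted p = 0.0132) and by 0.45 ± 0.11 in NFKBIZ flox cells (0.0125), and the change in LDHA flox cells was -0.15 ± 0.08 (0.177). Those calls were lost without NAMPT flox adeno-GFP IL-1β replicate 2 or adeno-cre IL-1β replicate 1 (0.0545 to 0.0813), and without either NFKBIZ flox adeno-GFP IL-1β replicate or adeno-cre IL-1β replicate 2 (0.0555 to 0.0944). The interaction in NAMPT flox cells was -0.33 ± 0.10 (adjusted p = 0.0456), and 6 of the 8 libraries of the line, all but adeno-GFP replicate 2 and adeno-cre IL-1β replicate 2, each ended that call when left out (0.0660 to 0.117). It was also lost with filterByExpr (0.0545) and without a filter (0.0822). In LDHA flox cells it was -0.37 ± 0.11 (adjusted p = 0.0610, 0.0104 with the replicate block, 0.0476 by DESeq2 and 0.0350 with filterByExpr), and in NFKBIZ flox cells it was called without a filter (-0.49 ± 0.16, 0.0477). After adeno-cre the response to IL-1β in NAMPT flox cells was -0.13 ± 0.07 (adjusted p = 0.176, and 0.0303 with the block).

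Gpx3, the secreted glutathione peroxidase, was lower after adeno-cre with IL-1β in all lines, and IL-1β lowered it in the adeno-cre cells of each line. Among controls of single lines it rose with IL-1β in NFKBIZ flox cells. Gpx3 in LDHA flox cells was 131 and 116 CPM with adeno-GFP, 147 and 134 CPM with IL-1β, 107 and 94.9 CPM with adeno-cre, and 58.4 and 63.1 CPM with adeno-cre and IL-1β. Gpx3 in NAMPT flox cells was 68.9 and 73.6, 65.8 and 61.9, 59.8 and 57.8, and 39.4 and 37.8 CPM. Gpx3 in NFKBIZ flox cells was 246 and 225, 402 and 402, 215 and 238, and 147 and 107 CPM. In all 3 lines both adeno-cre libraries with IL-1β lay below every other library of the line. In controls the log2 fold change with IL-1β was 0.29 ± 0.11 over the 3 lines (edgeR, adjusted p = 0.0375), made up of 0.19 ± 0.09 in LDHA flox (0.155, and 0.0337 with the replicate block), -0.13 ± 0.07 in NAMPT flox (0.179) and 0.78 ± 0.13 in NFKBIZ flox cells (0.000744). The call over the 3 lines was lost without LDHA flox adeno-GFP IL-1β replicate 1 or any of the 4 NFKBIZ flox libraries (0.0604 to 0.0869). After adeno-cre, IL-1β lowered Gpx3 by 0.70 ± 0.09 on the log2 scale (adjusted p = 0.000239), 0.56 ± 0.07 (9.17e-05) and 0.83 ± 0.13 (0.000992) in the LDHA, NAMPT and NFKBIZ flox cells. With IL-1β, adeno-cre lowered it 2.28-fold (log2 fold change -1.19 ± 0.09, adjusted p = 8.48e-06), 1.64-fold (-0.71 ± 0.07, 1.47e-05) and 3.21-fold (-1.68 ± 0.14, 3.48e-06). The interaction was -0.89 ± 0.13 (adjusted p = 0.00179), -0.43 ± 0.10 (0.0120) and -1.61 ± 0.19 (0.000290). Without IL-1β a fall of 0.28 ± 0.07 was called in NAMPT flox cells (adjusted p = 0.0220), and it was lost without adeno-GFP replicate 2 or either adeno-cre replicate (0.0753 to 0.169).

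Prdx1, a cytosolic peroxiredoxin that thioredoxin reduces, rose with IL-1β in controls of every line. Prdx1 in LDHA flox cells was 175 and 195 CPM with adeno-GFP, 451 and 519 CPM with IL-1β, 165 and 185 CPM with adeno-cre, and 309 and 294 CPM with adeno-cre and IL-1β. Prdx1 in NAMPT flox cells was 208 and 203, 526 and 507, 187 and 183, and 332 and 294 CPM. Prdx1 in NFKBIZ flox cells was 197 and 185, 345 and 342, 169 and 197, and 166 and 126 CPM. After adeno-cre the IL-1β libraries still lay above those without it in the first 2 lines, but below them in NFKBIZ flox cells. The log2 fold change with IL-1β was 1.20 ± 0.08 in the 6 against 6 controls (edgeR, adjusted p = 5.17e-09). With IL-1β, adeno-cre lowered Prdx1 by 0.66 ± 0.10 on the log2 scale in LDHA flox (adjusted p = 0.000709), 0.71 ± 0.07 in NAMPT flox (8.43e-06) and 1.25 ± 0.13 in NFKBIZ flox cells (2.66e-05). The response that remained after adeno-cre was 0.83 ± 0.10 (adjusted p = 0.000160), 0.80 ± 0.07 (3.62e-06) and -0.32 ± 0.13 (0.0970, and 0.0380 without a filter). The interaction was -0.56 ± 0.14 (adjusted p = 0.0321), -0.55 ± 0.09 (0.00208) and -1.18 ± 0.18 (0.00193). The first was lost without LDHA flox adeno-GFP replicate 1, adeno-GFP IL-1β replicate 2, adeno-cre replicate 2 or either adeno-cre IL-1β replicate (0.0681 to 0.122). Without IL-1β, adeno-cre in NAMPT flox cells gave -0.16 ± 0.07, with an adjusted p of 0.156 and of 0.00398 with the replicate block.

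The Prdx1 promoter is shown because it was the member promoter with matches to all 3 motifs. It lies at 4:116685349-116685648 on the plus strand (RefSeq, GRCm38.p6, same window). The capitals mark AP-1 matches that begin 237 and 131 bases before the start, an NF-κB match on the opposite strand at 170 bases before it, and an antioxidant response element core on the opposite strand at 133 bases before it, which overlaps the second AP-1 match.
Prdx1 promoter: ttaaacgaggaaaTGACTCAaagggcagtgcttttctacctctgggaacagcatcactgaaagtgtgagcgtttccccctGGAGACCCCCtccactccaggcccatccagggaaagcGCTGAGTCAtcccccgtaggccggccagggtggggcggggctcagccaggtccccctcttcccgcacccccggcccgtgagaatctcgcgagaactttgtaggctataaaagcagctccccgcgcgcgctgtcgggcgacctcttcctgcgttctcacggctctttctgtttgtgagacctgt
Of the other members in the table, Sod1 held an antioxidant response element core 56 bases before the start and Cybb an AP-1 match 139 bases before it. The windows of Cat, Gpx1, Gpx3, Prdx5 and Nox4 held none of the 3 motifs.

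Prdx5, a peroxiredoxin of mitochondria, peroxisomes and cytosol, rose with IL-1β to a like extent in the controls of all lines. Prdx5 in LDHA flox cells was 65.2 and 77.3 CPM with adeno-GFP, 123 and 137 CPM with IL-1β, 74.1 and 78.1 CPM with adeno-cre, and 112 and 122 CPM with adeno-cre and IL-1β. Prdx5 in NAMPT flox cells was 68.6 and 79.8, 114 and 121, 71.5 and 89.9, and 112 and 119 CPM. Prdx5 in NFKBIZ flox cells was 101 and 99.3, 177 and 183, 98.8 and 108, and 94.6 and 112 CPM. Only in the NFKBIZ flox cells did the adeno-cre libraries with IL-1β overlap with the libraries without it. The log2 fold change with IL-1β was 0.80 ± 0.06 in the 6 against 6 controls (edgeR, adjusted p = 2.02e-08). After adeno-cre it was 0.66 ± 0.10 in LDHA flox (adjusted p = 0.000653), 0.56 ± 0.11 in NAMPT flox (0.00155) and 0.00 ± 0.10 in NFKBIZ flox cells (0.987). With IL-1β, adeno-cre lowered Prdx5 by 0.82 ± 0.10 in NFKBIZ flox cells (adjusted p = 0.000132), and the changes in LDHA flox and NAMPT flox cells were -0.13 ± 0.10 (0.340) and -0.01 ± 0.11 (0.958). The interaction was called in NFKBIZ flox cells alone, at -0.86 ± 0.14 (adjusted p = 0.00371).

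Nox4, the constitutively active oxidase of many mesenchymal cells, was near the detection floor, with 8 to 77 raw reads in a library. Nox4 in LDHA flox cells was 1.38 and 0.726 CPM with adeno-GFP, 0.829 and 0.376 CPM with IL-1β, 1.52 and 1.63 CPM with adeno-cre, and 1.06 and 1.86 CPM with adeno-cre and IL-1β. Nox4 in NAMPT flox cells was 1.34 and 0.946, 0.401 and 1.11, 1.29 and 1.29, and 0.535 and 0.918 CPM. Nox4 in NFKBIZ flox cells was 1.34 and 0.337, 1.75 and 1.17, 1.28 and 0.736, and 1.80 and 1.39 CPM. Replicates of a group differed by as much as the groups did. The log2 fold change with IL-1β in the 6 against 6 controls was -0.19 ± 0.39 (edgeR, adjusted p = 0.703), so that a change was not detectable at this depth over the 3 lines. In set 1 alone a fall of 1.15 ± 0.47 was called (adjusted p = 0.0375). The change nearest to the threshold was that of adeno-cre with IL-1β in LDHA flox cells, at 1.21 ± 0.50 (adjusted p = 0.0937), and without a filter it was called (0.0468).

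Cybb was lower still, with at most 41 raw reads in a floxed library and 29 to 142 in a wild-type library. Cybb in LDHA flox cells was 0.631 and 1.01 CPM with adeno-GFP, 1.10 and 1.18 CPM with IL-1β, 0.478 and 0.814 CPM with adeno-cre, and 0.728 and 1.71 CPM with adeno-cre and IL-1β. Cybb in NAMPT flox cells was 0.507 and 0.210, 0.160 and 0.741, 0.236 and 0.312, and 0.321 and 0.250 CPM. Cybb in NFKBIZ flox cells was 0.0890 and 0.337, 0.251 and 0.261, 0.274 and 0.736, and 0.516 and 0.174 CPM. LDHA flox libraries lay mostly above those of the other 2 lines. Among fits of a single line, Cybb passed the filter only in LDHA flox and wild-type cells. Cybb was also tested in the models of differences between lines. With IL-1β it gave 0.48 ± 0.51 in LDHA flox controls (edgeR, adjusted p = 0.552) and 0.94 ± 0.54 after adeno-cre (0.207), so that no change was detectable at this depth. The 12 leukocyte markers, among them Ptprc and Csf1r, summed to 18.7 to 70.4 CPM in the floxed libraries. In the wild type they summed to 117 to 197 CPM in set 1 and 192 to 348 CPM in set 2. There Cybb was 0.856 to 2.43 CPM in set 1, which overlapped with LDHA flox libraries, and 1.80 to 5.22 CPM in set 2. No leukocyte marker was at 0 in all libraries. Of the 7 tested in the floxed controls, 4 rose with IL-1β, where 26.4% of all genes were higher. The part of leukocytes in the Cybb level was not tested.

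**Figure D5:**
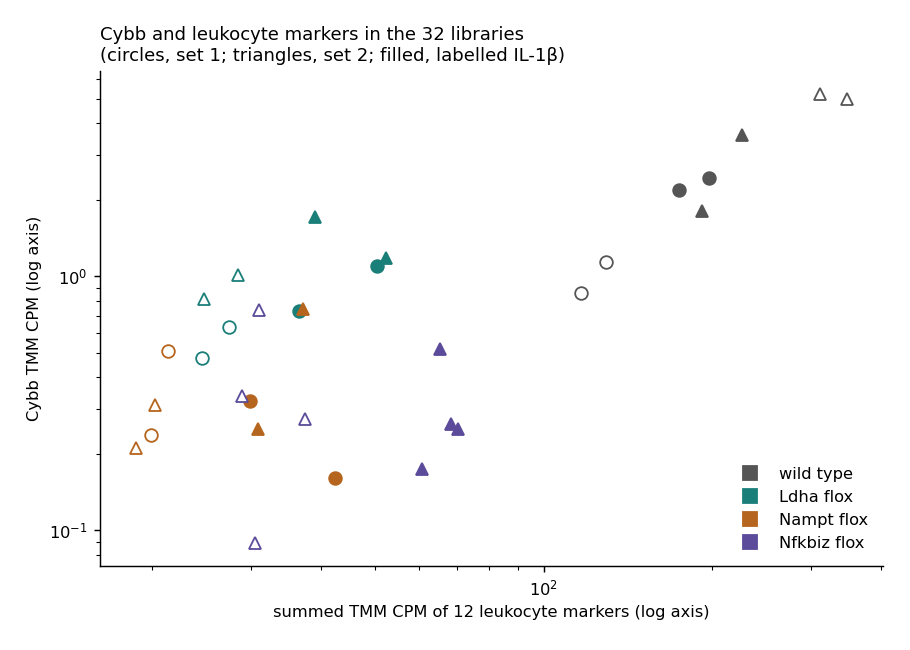
Cybb against the summed level of 12 leukocyte markers (both TMM-scaled CPM, log axes) in the 32 libraries, coloured by line. Wild-type libraries lie to the right, with marker sums of 117 to 348 CPM, and the floxed libraries at 18.7 to 70.4 CPM. In height they overlap, with Cybb at 0.856 to 5.22 CPM in the wild type and up to 1.71 CPM in floxed libraries.

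Whether the 3 lines differed was tested in 1 model over all floxed libraries of a comparison (edgeR F test of 2 contrasts). The response to IL-1β in controls differed between lines for 5 of 10 members, against 2.28% of all genes: Gpx3 (F = 33.7, adjusted p = 0.00270), Cat (13.2, 0.0402), Sod3 (12.9, 0.0414), Gpx1 (12.4, 0.0453) and Prdx1 (12.1, 0.0482). The call for Gpx3 was kept whichever of the 12 libraries was left out. Those for Sod3, Cat and Prdx1 were each lost by leaving out any of 9 of the 12 libraries and that for Gpx1 by any of 11, with adjusted p of 0.0671 to 0.305, 0.0557 to 0.225, 0.0688 to 0.230 and 0.0539 to 0.206. The libraries that did not end a call were LDHA flox adeno-GFP replicates 1 and 2 and adeno-GFP IL-1β replicate 1 for Sod3 and Prdx1, LDHA flox adeno-GFP replicates 1 and 2 and NFKBIZ flox adeno-GFP IL-1β replicate 2 for Cat, and NFKBIZ flox adeno-GFP replicate 1 for Gpx1. Sod2 (F = 5.02, adjusted p = 0.282) and Prdx5 (1.08, 0.763) were not called as different.

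The effect of adeno-cre with IL-1β differed between lines for 7 of 10 members, against 28.6% of all genes. These were Gpx3 (F = 17.5, adjusted p = 0.000451), Sod1 (16.7, 0.000569), Prdx5 (13.2, 0.00183), Sod3 (11.8, 0.00306), Sod2 (10.3, 0.00536), Cat (8.69, 0.0105) and Prdx1 (7.74, 0.0158). The fitted change of Sod2, Sod3, Gpx3, Prdx1 and Prdx5 was lowest in NFKBIZ flox cells, where that of Prdx5 was called and in neither other line. Pairs of lines were not tested. Sod1 rose in LDHA flox and NAMPT flox cells. With IL-1β, adeno-cre also lowered Nfkbiz in LDHA flox (log2 fold change -1.30 ± 0.10, edgeR) and NAMPT flox cells (-1.64 ± 0.08). It lowered Ldha (-0.82 ± 0.11) and Nampt (-0.99 ± 0.15) in NFKBIZ flox cells. The call for Cat was lost without NFKBIZ flox adeno-GFP IL-1β replicate 2 or adeno-cre IL-1β replicate 2 (adjusted p = 0.0570 to 0.105), and that for Prdx1 without either of the 2 adeno-GFP IL-1β replicates of this line or adeno-cre IL-1β replicate 2 (0.0554 to 0.120). Without IL-1β the effect of adeno-cre differed for 0 of 10 members by edgeR, DESeq2 and limma voom, with 1 at an unadjusted p under 0.05, against 2.45% of all genes. NFKBIZ flox libraries were all of set 2, so that line and library set cannot be fully told apart. With the set as a term 5 and 7 members were called in the first 2 tests.

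FX11 was used to block LDHA without a virus. In wild-type cells 0% of the 15461 genes tested were called by edgeR in each of 4 comparisons, in either direction: IL-1β against untreated, FX11 against untreated, FX11 with IL-1β against IL-1β, and both against untreated. At an unadjusted p under 0.05 there were 153, 68, 102 and 860 genes. DESeq2 called 6, 2, 1 and 153, and limma voom 0 in each. No member was called by any of the 3 tools. The IL-1β group held Mmp3 at 9125 and 0.784 CPM and the FX11 group at 1.20 and 2016 CPM. All 4 comparisons share an estimate of the spread that includes these groups. The lack of calls therefore cannot tell whether the agents changed the members. An unadjusted p under 0.05 was reached by 2 member values, both for the 2 agents together against untreated cells. They were Sod2 (log2 fold change 3.20 ± 1.32, adjusted p = 0.874 by edgeR) and Prdx1 (1.09 ± 0.30, adjusted p = 0.873 by edgeR).

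The wild-type values by set, with 1 library per condition and hence no test, were as follows. Sod2 in set 1 was 79.01 CPM untreated, 85.7 CPM with FX11, 908 CPM with IL-1β and 837 CPM with both. Sod2 in set 2 was 86.4 CPM untreated, 759 CPM under the FX11 label, 85.5 CPM under the IL-1β label and 674 CPM with both. In each set Sod2 was thus high in 2 libraries, but under different labels. Sod3 was 25.8, 20.1, 657 and 413 CPM in set 1 and 30.8, 159, 14.9 and 160.3 CPM in set 2 under the same 4 labels. Prdx1 was 182, 188, 294 and 336 CPM in set 1 and 149, 258, 185 and 362 CPM in set 2. In both sets Prdx1 was highest in the library with both agents. Prdx5 was 65.0, 68.3, 144 and 122 CPM in set 1 and 92.3, 169.6, 108 and 140.0 CPM in set 2. Gpx3 was 105, 116, 261 and 161 CPM in set 1 and 676, 1029.7, 679 and 772 CPM in set 2. The 4 set 2 libraries exceeded every set 1 library for Gpx3. Gpx1 was 86.9, 93.1, 117 and 136 CPM in set 1 and 67.9, 97.4, 49.1 and 84.7 CPM in set 2. Cat stayed within 69.8 to 104 CPM and Sod1 within 124 to 239.5 CPM over the 8 libraries. Nox4 was 0.768 to 2.13 CPM and Cybb 0.856 to 5.22 CPM. With IL-1β in set 1, where labels and Mmp3 matched, the addition of FX11 went with changes in both directions, in single libraries. Sod2 went from 908 to 837 CPM and Sod3 from 657 to 413 CPM, and Gpx3, Prdx5, Nox4 and Cybb were also lower. Prdx1 and Gpx1 were higher, as were Cat (78.2 to 104 CPM) and Sod1 (124 to 139 CPM).

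The other genes of the pathway were read from 7 lists. Among the oxidase partners (10 genes, 5 tested) 2 rose and 2 fell with IL-1β in the floxed controls, where 26.4% of all genes were higher and 26.7% lower. Cyba, the p22phox partner of both Nox4 and Cybb, rose by 0.63 ± 0.10 on the log2 scale (edgeR, adjusted p = 8.38e-05). Small falls were called for Poldip2, which binds Nox4 and p22phox (-0.17 ± 0.05, 0.00547), and the GTPase Rac1 (-0.15 ± 0.05, 0.0268). The Rac1 call was lost without any of 6 of the 12 libraries, LDHA flox adeno-GFP replicate 1 and adeno-GFP IL-1β replicate 2 and the 4 NFKBIZ flox libraries (0.0671 to 0.131). Of the other NADPH oxidases and their maturation factors (5 genes) Duox1 alone passed the filter, at 0.09 ± 0.28 (0.799). Among other superoxide or peroxide producers 3 of 6 tested rose: Xdh, xanthine dehydrogenase, by 4.51 ± 0.14 (8.81e-13), Smox, spermine oxidase, by 2.28 ± 0.06 (7.74e-14), and Aox1, an aldehyde oxidase, by 1.11 ± 0.14 (7.93e-06). Of the pathway genes given values here, Rac1, Cybc1 and Prdx2 share exon bases with a gene on the other strand (2309 with Daglb, 68 with Hexdc, and 177 and 173 with Rnaseh2a and Junb). Their values are uncertain to that extent, since the strand setting of the counting was not given in the sources used here.

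Of the reductants that recharge the peroxidases 5 of 7 rose and 1 fell with IL-1β, with a list median of 1.449, against 26.4% and 26.7% of all genes and a median of -0.01. The 3 with the smallest adjusted p were Srxn1, the sulfiredoxin that repairs overoxidized peroxiredoxins (1.95 ± 0.05, edgeR, adjusted p = 9.80e-14), Gsr, glutathione reductase (1.96 ± 0.07, 5.99e-12), and Txnrd1, thioredoxin reductase (1.449 ± 0.07, 1.65e-10). Of the other peroxiredoxins (4 tested) Prdx6 rose by 1.55 ± 0.08 (2.50e-10), and Prdx3 fell by 0.11 ± 0.05 with an adjusted p of 0.04998 that exceeded the threshold when any of the 12 libraries was left out (0.0533 to 0.181). Of the other glutathione peroxidases (6 genes, 3 tested) Gpx7 fell by 0.78 ± 0.06 (5.59e-08) and Gpx8 by 0.21 ± 0.08 (0.0320). The Gpx8 call was lost without any of 6 libraries, which were replicate 1 of LDHA, NAMPT and NFKBIZ flox adeno-GFP and replicate 2 of LDHA, NAMPT and NFKBIZ flox adeno-GFP IL-1β (0.0704 to 0.133). For metal supply to the dismutases 1 of 4 rose and 1 fell. Slc39a14, a zinc and manganese transporter, rose by 1.31 ± 0.04 (1.83e-12). Ccs, the copper chaperone of Sod1, fell by 0.33 ± 0.11 (0.0180), a call lost without NAMPT flox adeno-GFP IL-1β replicate 1 or LDHA flox adeno-GFP replicate 2 (0.0522 to 0.0554).

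With IL-1β, adeno-cre in LDHA flox cells lowered 3 of the 7 reductants and raised 1, against 17% of all genes lower: Srxn1 changed by -0.94 ± 0.07 (edgeR, adjusted p = 5.82e-06), Gsr by -0.62 ± 0.07 (0.000121) and Txnrd1 by -0.60 ± 0.07 (0.000179). Prdx6 (-1.06 ± 0.07, 2.85e-06) and Prdx3 (-0.31 ± 0.09, 0.0224) were the 2 of 4 other peroxiredoxins called. Gpx8 (-0.66 ± 0.14, 0.00575) was the only one of 3 other glutathione peroxidases called, and the monoamine oxidase Maoa (-1.03 ± 0.13, 0.000264) the only one of 6 producers. Of 8 oxidase partners tested Cyba was higher (0.90 ± 0.17, 0.00297) and Rac2, the leukocyte Rac, lower (-1.11 ± 0.38, 0.0472). Of the 4 metal supply genes Slc39a14 (-0.77 ± 0.07, 3.11e-05) and the copper exporter Atp7a (-0.39 ± 0.11, 0.0228) were lower and the copper importer Slc31a1 (0.43 ± 0.13, 0.0269) was higher. Duox1 was at 0.08 ± 0.28 (0.858). Single libraries decided the calls of Rac2 (any of the 8, 0.0536 to 0.213), Prdx3 (adeno-GFP IL-1β replicate 2 or adeno-cre IL-1β replicate 1, 0.117 to 0.142), Atp7a (replicate 2 of adeno-GFP IL-1β or of adeno-cre IL-1β, 0.0918 to 0.108) and Slc31a1 (either adeno-GFP IL-1β replicate or adeno-cre IL-1β replicate 2, 0.0863 to 0.241).

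In NAMPT flox cells with IL-1β, adeno-cre lowered 3 of the 7 reductants and raised 3, against 23.4% of all genes lower and 25% higher. Those with the smallest adjusted p were Srxn1 (-0.70 ± 0.06, edgeR, adjusted p = 3.26e-06), Txnrd1 (-0.67 ± 0.06, 7.09e-06) and the mitochondrial thioredoxin Txn2 (0.50 ± 0.06, 3.68e-05). Of 4 other peroxiredoxins Prdx6 (-1.11 ± 0.07, 2.99e-07) and Prdx3 (-0.34 ± 0.08, 0.00457) were lower and Prdx2 (0.35 ± 0.11, 0.0214) higher. Of 6 producers 2 were higher and 2 lower, with Maoa at -1.21 ± 0.15 (5.62e-05) and Aox1 at -0.79 ± 0.21 (0.00988), the 2 lower ones. Of 7 oxidase partners tested Cyba (0.88 ± 0.13, 0.000200) and Cybc1, a chaperone of the Cybb and Cyba pair (0.33 ± 0.12, 0.0451), were higher. All 4 other glutathione peroxidases tested were called. Gpx8 was at -0.87 ± 0.15 (0.000575) and Gpx7 at -0.47 ± 0.10 (0.00288). Gpx2 had 22 and 26 raw reads with adeno-cre and IL-1β and 0 and 0 in its controls (adjusted p = 0.00421). Of the 4 metal supply genes Slc39a14 (-0.77 ± 0.07, 8.69e-06) and Atp7a (-0.29 ± 0.11, 0.0462) were lower and Slc31a1 (0.42 ± 0.08, 0.00129) higher. Duox1 was at 0.95 ± 0.43 (0.0905). Calls lost without 1 library were those of Cybc1 (adeno-GFP replicate 2, adeno-GFP IL-1β replicate 2, either adeno-cre replicate or adeno-cre IL-1β replicate 1, 0.0568 to 0.353), Aox1 (adeno-GFP IL-1β or adeno-cre IL-1β replicate 1, 0.0541 to 0.0751), Prdx2 (adeno-GFP IL-1β replicate 2 or adeno-cre IL-1β replicate 1, 0.157 to 0.173) and Atp7a (any of 6 libraries, all but adeno-GFP replicate 2 and adeno-cre IL-1β replicate 1, 0.0539 to 0.292).

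In NFKBIZ flox cells with IL-1β, adeno-cre lowered 5 of the 7 reductants, among them Srxn1 (-2.17 ± 0.10, edgeR, adjusted p = 1.19e-08), Gsr (-1.43 ± 0.12, 3.56e-06) and Txnrd1 (-0.92 ± 0.10, 3.93e-05), against 9.2% of all genes lower. It lowered 4 of 6 producers, among them Smox (-1.97 ± 0.11, 9.97e-08), Xdh (-2.13 ± 0.14, 6.11e-07) and Aox1 (-0.997 ± 0.24, 0.0128). Prdx6 (-1.28 ± 0.09, 1.05e-06) was the only one of 4 other peroxiredoxins called. Duox1, an oxidase that releases hydrogen peroxide, was higher (1.94 ± 0.44, 0.00895). Of the 4 metal supply genes Slc39a14 was lower (-1.83 ± 0.09, 5.83e-08) and Ccs higher (0.49 ± 0.14, 0.0257). The 6 oxidase partners tested ranged from Cybc1 at -0.31 ± 0.14 (0.157) to Rac1 at 0.08 ± 0.09 (0.602), and Gpx4, Gpx7 and Gpx8 lay between -0.04 and 0.09, none of them called. Calls lost without 1 library were those of Duox1 (adeno-GFP IL-1β replicate 2, 0.0769), Aox1 (either adeno-GFP IL-1β replicate or adeno-cre IL-1β replicate 2, 0.0529 to 0.0805) and Ccs (the same 3 libraries, 0.101 to 0.179).

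For each member the 3 genes with the most similar pattern were found by Pearson's r of log2 CPM over the 32 libraries, among 14255 genes. These values describe shared variation over libraries that also share treatments and sets, and carry no test. Sod2 was followed most closely by Pde4b (r = 0.983), Sdc4 (0.968) and Slc39a8 (0.958), and Sod3 by Sphk1 (0.962), Camkk2 (0.958) and Slc23a2 (0.956). Gpx3 varied with Aldoc (0.967), Ggh (0.920) and Ntng2 (0.912). Prdx1 varied with Esd (0.956), Prdx6 (0.948) and Srxn1 (0.943), and Prdx5 with Gpi1 (0.930), Bnip3l (0.924) and Fth1 (0.919). Likeness was weaker for Sod1, with Tmem222 (0.843), Fam131c (0.842) and Polr2l (0.840), for Gpx1, with Serpine2 (0.837), H2afj (0.813) and Sat1 (0.813), and for Cat, with Cstb (0.784), Dazap2 (0.774) and Nod1 (0.745). Cybb varied with C5ar1 (0.889), Rac2 (0.862) and Ptprc (0.860), and Nox4 reached no more than 0.552, with Fstl3, before Magt1 (0.527) and Rgl1 (0.525).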

How the data were processed

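RNA was sequenced from primary sternal chondrocytes in 32 libraries (Trizol, ribosomal RNA removed with KAPA Ribo-Erase). Per the study's methods the authors aligned reads with STAR to the Ensembl 76 assembly of GRCm38 and counted them per gene with Subread featureCounts; the submitters' processing notes name STAR 2.0.4b and featureCounts 1.45, whereas the methods name other versions of both. The deposited tables hold raw counts, CPM and RPKM per gene. The deposited CPM and RPKM values were recomputed from the counts and differed by over 0.1% in 0 cases, so tests used the counts. The whole of the depth (15830658 to 39959888 reads) limits Nox4 and Cybb, which had few reads.

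The 355 ribosomal RNA genes were left out. Genes over 1 CPM in at least 1 library of a line, or in at least 5 of the 12 in the pooled comparison, were tested across all genes in edgeR 4.0.16 (R 4.3.3; TMM, glmQLFit and glmQLFTest, two-sided), with Benjamini-Hochberg adjustment over all genes tested and a threshold of 0.05. Errors of edgeR values are an approximate SE, the absolute log2 fold change divided by the square root of the F of its test. Levels are TMM-scaled CPM over the 32 libraries, and likeness used log2(CPM + 0.1). Alternatives were DESeq2 1.42.0, limma 3.58.1 (voomWithQualityWeights, the study's test), RLE scaling, other filters, leaving out each library, and the library set as a replicate block. The code was tested on simulated data. Figures used Python 3.11.15 and matplotlib 3.10.9.

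Same-set libraries deviated together in LDHA flox (r = 0.291 to 0.491 over 6 pairs of deviations) and NAMPT flox cells (0.295 to 0.388), so set pairs the libraries there. In the wild type r was -0.136 to 0.715. Both libraries that ran against their labels are among these, so r cannot tell whether set pairs the wild-type libraries. Set numbers come from the titles. Replicates of every group differed by more than sampling noise. Of the gene IDs, 40340 of 41388 had a name. The members, the pathway and marker lists and the tests were chosen with earlier results of these data known. Named were all members, the deleted genes, of each pathway list up to 3 called genes of smallest adjusted p in the pooled IL-1β comparison, in adeno-cre with IL-1β of each line and in FX11 with IL-1β (none called), and the 3 genes most alike each member. Marker lists were for chondrocytes, leukocytes, neutrophils, erythroid cells, fibroblasts, endothelium, muscle and the response to IL-1β. Endothelial markers called for adeno-cre with IL-1β were named besides. Copies of a gene elsewhere in the genome were not searched for. A pathway gene that met the rule for named genes is not reported here.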

Additional observations from a re-analysis of the deposited data

Results flagged for a closer look

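Among the members, 2 of 40 groups of 6 libraries held 1 library far from the others by Dixon's criterion, which chance alone flags in about 1 in 20 groups. These were Sod3 in adeno-GFP cells with IL-1β, where LDHA flox replicate 1 had 176.8 CPM, and Cybb in adeno-cre cells with IL-1β, where LDHA flox replicate 2 had 1.707 CPM.

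The other 27 results are differences of 1 effect between groups, each from a test of the difference itself in edgeR. Adeno-cre changed the response to IL-1β (log2 difference of responses) in LDHA flox cells for Sod2 (-1.50), Sod3 (-1.07), Gpx3 (-0.89) and Prdx1 (-0.56). In NAMPT flox cells it did so for Sod1 (0.75), Sod2 (-1.38), Sod3 (-1.39), Gpx1 (-0.33), Gpx3 (-0.43) and Prdx1 (-0.55), and in NFKBIZ flox cells for Sod2 (-2.10), Sod3 (-1.86), Gpx3 (-1.61), Prdx1 (-1.18) and Prdx5 (-0.86). The response to IL-1β in controls differed between the 3 lines for Sod3 (F = 12.9), Cat (13.2), Gpx1 (12.4), Gpx3 (33.7) and Prdx1 (12.1). The effect of adeno-cre with IL-1β differed between the lines for Sod1 (F = 16.7), Sod2 (10.3), Sod3 (11.8), Cat (8.69), Gpx3 (17.5), Prdx1 (7.74) and Prdx5 (13.2). Line and library set overlap in these last 2 tests, since every NFKBIZ flox library was of set 2.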

How the results depend on the processing

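No member call changed direction under any alternative. Of 91 member calls, 70 were kept whichever library was left out and 21 were lost without at least 1. Counts of members called, with the range when 1 library was left out, were 7 (5 to 7) for IL-1β in the pooled controls, 6 (5 to 6), 5 (5 to 6) and 6 (6 to 6) in the LDHA, NAMPT and NFKBIZ flox controls, and 7 (6 to 7), 7 (7 to 8) and 5 (3 to 6) after adeno-cre. For adeno-cre with IL-1β they were 5 (3 to 5), 7 (5 to 7) and 6 (5 to 7), and without IL-1β 0 (0 to 1), 3 (2 to 3) and 0 (0 to 0). For the interaction they were 4 (2 to 5), 6 (5 to 6) and 5 (5 to 6). For line differences they were 5 (1 to 4) for IL-1β, 7 (5 to 7) for adeno-cre with IL-1β and 0 (0 to 0) without it, and in the 4 wild-type comparisons 0 (0 to 0).

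With wild-type libraries added, 1 of which ran against its label, the pooled IL-1β count fell from 7 to 4 (Cat adjusted p = 0.101, Gpx1 0.0848, Gpx3 0.489), and that of all genes from 7583 to 4987. Line differences in the IL-1β response fell from 5 to 3 with RLE scaling (Sod3 adjusted p = 0.0540, Gpx1 0.0527) and to 3 with filterByExpr (0.0529 and 0.0628). RLE scaling moved the median gene by at most 0.0158. Without a filter the count rose from 0 to 2 for adeno-cre in LDHA flox cells without IL-1β (Sod3, adjusted p = 0.00803, and Gpx3, 0.0367) and from 0 to 1 for the line difference of that effect (Sod3, 0.000955). Also without a filter calls were gained for Sod1 in the LDHA flox interaction, Nox4 in LDHA flox and Cat in NFKBIZ flox cells for adeno-cre with IL-1β, Prdx1 for IL-1β after adeno-cre in NFKBIZ flox cells and Gpx1 in the NFKBIZ flox interaction, and lost for Cat in NAMPT flox cells for adeno-cre with IL-1β and Gpx1 in the NAMPT flox interaction. DESeq2 gained Sod1 and Gpx1 in the LDHA flox interaction and lost Cat in NAMPT flox cells, filterByExpr gained Gpx1 in the LDHA flox interaction and lost it in that of NAMPT flox cells, and limma voom gained Sod1 for IL-1β in NFKBIZ flox controls; the values stand beside the genes. The replicate block raised the former from 0 to 4 and raised all-gene counts from 877 to 1994 there, from 2319 to 4311 in NAMPT flox cells, from 1825 to 3374 and 3552 to 5648 for the interactions, and from 365 to 939 for the line difference in IL-1β. The calls it changed among members are given beside their values; it changed no other. No block was possible in NFKBIZ flox cells, whose libraries share 1 set. Without a filter all-gene counts rose from 40 to 170 (adeno-cre without IL-1β) and 797 to 1325 (interaction) in NFKBIZ flox cells, from 365 to 629 for the line difference in IL-1β, and from 0 to 8 for both agents in the wild type. DESeq2 called 71 in place of 40 for the first of these. Leaving out both doubted wild-type libraries, an alternative chosen after seeing the data, gave 1, 0, 0 and 1 genes. The causes were not tested. Of 54 pathway values that the rule for named genes gave, 15 lost their call without some 1 library, and 8 under another setting. These 8 were, for IL-1β in the pooled controls, Poldip2, Rac1 and Gpx8 (wild type added, set 2 alone), Ccs (wild type added) and Prdx3 (every setting but filterByExpr), and for adeno-cre with IL-1β, Rac2 in LDHA flox (DESeq2, no filter) and Cybc1 (DESeq2) and Atp7a (DESeq2, limma voom, both other filters) in NAMPT flox cells. Few reads limited Nox4 and Cybb.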

Other observations

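Of the other marker lists, the 6 neutrophil markers summed to 4.23 to 14.8 CPM in the floxed adeno-GFP libraries and 9.30 to 26.4 CPM with IL-1β. With IL-1β, 3 of the 4 neutrophil markers tested rose, where 26.4% of all genes were higher. Their sum was 37.9 to 46.7 CPM in wild-type set 1, and Ly6g was at 0 in the floxed adeno-cre libraries without IL-1β and in wild-type set 2. The 6 erythroid markers stayed at 0.823 to 5.43 CPM in floxed libraries and reached 17.8 to 43.8 CPM in wild-type set 1. The 5 muscle markers were at 2.56 to 53.1 CPM in floxed libraries and 144 to 248 CPM in wild-type set 1, against 27.2 to 61.2 CPM in set 2. Of these, Myh3, Myh8 and Myog did not pass the filter in NFKBIZ flox cells and did in the other floxed lines. The 5 genes that served as a check of the response to IL-1β summed to 47.8 to 61.0 CPM in floxed controls and 5160 to 13310 CPM with IL-1β, all 5 higher, and to 708 to 2625 CPM with adeno-cre and IL-1β.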
